A study of Mus musculus with 4 samples.

Results

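The amyloid precursor protein family of the mouse has 3 members: App, the precursor of the amyloid beta peptide, and its relatives Aplp1 and Aplp2, the amyloid precursor-like proteins. They were taken by symbol from the 27998 genes of the Illumina table, and as all their transcripts among the 31947 isoforms of the Nanopore table, where 10 isoforms belonged to them (4 of App, 1 of Aplp1 and 5 of Aplp2). The cells came from the brain of an E18 mouse (embryonic day 18, strain C57BL/6), with cortex, hippocampus and sub ventricular zone combined, and were loaded on the 10x Genomics Chromium system; the labels give no treatment and no genotype beyond the strain. The droplets of 1 run were divided, ahead of reverse transcription, into aliquots of 190 and 951 cells, and the cDNA of each was read by short-read Illumina sequencing (counts per gene) and by long-read Nanopore sequencing (counts per isoform), so that the 4 libraries form 2 groups, Illumina and Nanopore, of 2 each. The aliquots are technical replicates of 1 droplet run, and every p-value below measures the spread between such aliquots, not between mice.

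All 3 proteins cross the membrane once, with a large outer part and a short inner tail. They are cut by alpha- or beta-secretases outside the membrane and then by gamma-secretase within it. App and Aplp2, but not Aplp1, can carry an extra outer domain, the Kunitz protease inhibitor (KPI) domain, which inhibits serine proteases and is encoded by an exon that splicing includes or skips. App without this domain is known as the form of neurons, while forms with it are known from glia and from tissues outside the brain. Aplp1 is known as the member found mainly in the nervous system.

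On GRCm38, App (ENSMUSG00000022892) lies at chr16:84949685-85173766, Aplp1 (ENSMUSG00000006651) at chr7:30434982-30445535 and Aplp2 (ENSMUSG00000031996) at chr9:31149557-31211815, all on the minus strand. In App, 5 annotated genes overlap on the opposite strand, and whether the Illumina counting used strand is not given in the sources used here. It is thus not known whether reads of these genes entered the Illumina counts of App. The Nanopore reads were aligned with a setting for the transcript strand and counted only where their exons matched an isoform. Aplp1 and Aplp2 overlap with no other gene.

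The exons that set the isoforms apart are shown first, because the isoform difference between cell classes turned on one of them. The KPI exon of App lay at chr16:85043576-85043743 and that of Aplp2 at chr9:31167561-31167728 (GRCm38, minus strand, coding exons, sequence from Gencode vM21). Each was exon 7 of its transcript and 168 bases long. Capitals mark the 114 positions (67.9%) at which both exons had the same base, aligned without gaps.
App KPI exon: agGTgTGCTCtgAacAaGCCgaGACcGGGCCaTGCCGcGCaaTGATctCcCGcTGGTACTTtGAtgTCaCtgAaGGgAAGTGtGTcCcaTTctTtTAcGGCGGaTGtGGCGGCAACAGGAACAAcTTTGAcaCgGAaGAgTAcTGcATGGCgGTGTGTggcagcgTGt
Aplp2 KPI exon: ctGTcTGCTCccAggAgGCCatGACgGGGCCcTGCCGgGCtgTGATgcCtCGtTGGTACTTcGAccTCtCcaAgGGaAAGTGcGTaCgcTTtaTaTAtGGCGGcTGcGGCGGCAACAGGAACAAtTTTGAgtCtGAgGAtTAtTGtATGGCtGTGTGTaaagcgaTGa
Of the 55 whole codons in each exon, 38 (69.1%) coded for the same amino acid. Both exons held 6 cysteine codons, all at the same positions; Kunitz domains are held together by disulfide bonds between cysteines.

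A second exon followed in App, 57 bases at chr16:85040251-85040307 (exon 8 of App-206, minus strand, coding), and Aplp2 had a second skipped exon of 36 bases at chr9:31156190-31156225 (exon 13 of Aplp2-202, minus strand, coding). Here capitals mark the exon, and the lower case letters are the 15 bases of the exon on either side.
App exon of 57 bases: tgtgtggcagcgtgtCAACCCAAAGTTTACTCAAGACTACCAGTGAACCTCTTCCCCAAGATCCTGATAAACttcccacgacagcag
Aplp2 exon of 36 bases: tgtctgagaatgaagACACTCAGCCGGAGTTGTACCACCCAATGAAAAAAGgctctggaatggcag
The 4 exon lengths come to 56, 56, 19 and 12 codons, so that skipping one keeps the reading frame.

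App-201, with 695 codons, had neither App exon, App-202 (751 codons) had the KPI exon alone, and App-206 (770 codons) had both. Aplp2-209 (695 codons) had neither Aplp2 exon, Aplp2-201 (751 codons) had the KPI exon, Aplp2-202 (707 codons) had the 36-base exon, and Aplp2-203 had both but is annotated without its 3′ end. App-205 and Aplp2-207 are short retained-intron transcripts at the 3′ end of their genes and do not reach these exons. The only Aplp1 isoform with a count was Aplp1-201 (654 codons, 17 exons).

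**Figure D1:**
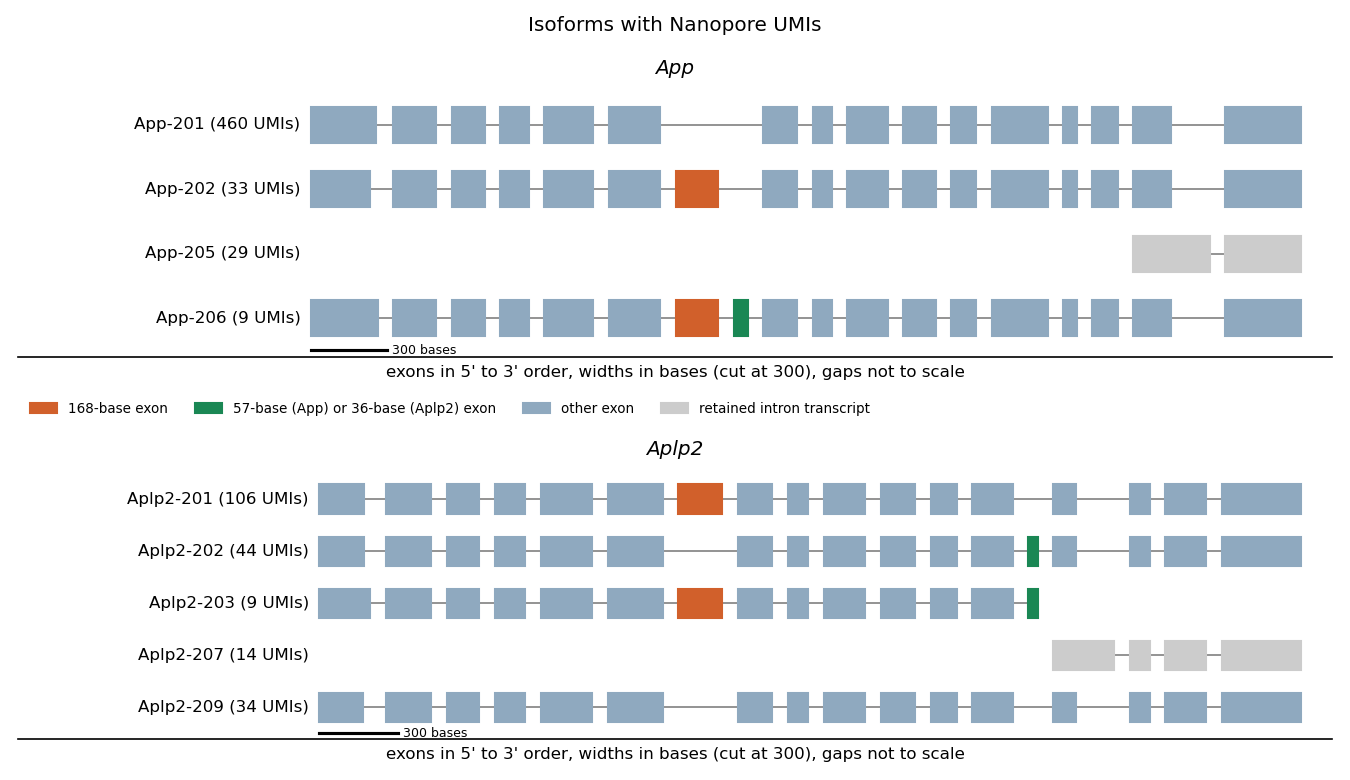
Exons of the App and Aplp2 isoforms with Nanopore counts, in 5′ to 3′ order; box widths are exon lengths in bases, cut at 300, with gaps not to scale. The KPI exon of 168 bases (orange) was in App-202 and App-206, with 33 and 9 UMIs, and absent from App-201, with 460 UMIs, whereas the most counted Aplp2 isoform, Aplp2-201 with 106 UMIs, contained it.

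After cells with fewer than 1400 Illumina genes were left out, 186 and 935 cells remained in the 190- and 951-cell aliquots, with 1809081 and 8295650 Illumina UMIs (unique molecular identifiers, each standing for 1 captured molecule) and 993220 and 4889148 Nanopore UMIs. Cells were clustered on Illumina counts without the family and its pathway genes, and clusters were named from marker genes. The named classes held 67 radial glia-like, 119 cycling radial glia-like, 84 intermediate progenitor-like, 231 immature and 281 mature glutamatergic-like, 177 immature and 140 mature GABAergic-like and 17 Cajal-Retzius-like cells. All 12 radial glia markers were raised in the radial glia-like cluster, but only 3 and 5 of 10 mature glutamatergic markers in the 2 clusters of that name. The cycling radial glia list held genes of dividing cells and no gene of the radial glia list. The next list for that cluster was intermediate progenitor, so that the class may hold dividing progenitors of either kind. At least 1 of 4 haemoglobin genes had a UMI in 1085 of 1121 cells, and the part of free RNA in the values below was not tested. Cells with 3 or more markers of microglia (3 cells) or pericytes (2 cells) were left out, and 6 cells with 3 or more of 4 oligodendrocyte precursor markers were kept. Between the aliquots, 13 cell barcodes were shared, 12 of them among the cells kept (24 cells). For 11 of these 12, the cells of both aliquots were in the same class. Whether such barcodes were chance matches or shared droplets was not tested. The tests of the members were repeated without these 24 cells, with no call changed. This covered the platforms, the 5 planned comparisons of classes and the pooled classes. The tests of pathway genes, of the mature against immature difference between glutamatergic-like and GABAergic-like classes, and among progenitor-like classes were not repeated in this way.

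Aplp1 had the most UMIs of the family and Aplp2 the fewest. The Illumina libraries of the 190- and 951-cell aliquots held 561 and 2376 UMIs of Aplp1, 178 and 735 of App, and 104 and 503 of Aplp2. As CPM, that is UMIs scaled to the total of each library, this was 310.1 and 286 for Aplp1, 98.4 and 88.6 for App, and 57.5 and 60.6 for Aplp2. A UMI marks 1 captured 3′ end and is not scaled by transcript length, but how well each gene is captured is not known, so that shares between genes are shares of UMIs.

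By the unweighted mean of both aliquots, all 3 members were highest in Cajal-Retzius-like cells, of which there were 4 and 13 in the aliquots. Cajal-Retzius cells are early-born neurons of the outermost cortical layer that secrete reelin. Aplp1 had 497 and 447 CPM there, App 189 and 63.8 CPM, and Aplp2 142 and 239 CPM. The Aplp1 values came from 21 and 56 UMIs and the App values from 8 in each aliquot, and both overlapped with the class next in order. The first rank of App rested on the 190-cell aliquot, where 4 of its 8 UMIs came from 1 cell. In the 951-cell aliquot only cycling radial glia-like cells had less App, at 43.7 CPM. With the UMIs of both aliquots pooled, App was at 95.4 CPM in Cajal-Retzius-like cells. That was below mature (107 CPM) and immature (98.6 CPM) glutamatergic-like cells. With 4 cells in the smaller aliquot, this class was under the minimum of 5 and entered no test.

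Over the other classes, Aplp1 was low in radial glia-like cells, at 88.8 CPM in the 190-cell and 55.2 CPM in the 951-cell aliquot, and close to that in cycling radial glia-like cells, at 87.1 and 94.4 CPM. Intermediate progenitor-like cells stood between, at 213 and 160 CPM. The other neuron-like classes lay higher, with 363 and 335 CPM in immature glutamatergic-like, 496 and 393 CPM in mature glutamatergic-like, 304 and 339.8 CPM in immature GABAergic-like and 321 and 365 CPM in mature GABAergic-like cells. In this order, intermediate progenitor-like cells overlapped with neither neighbour, whereas the immature glutamatergic-like and the GABAergic-like classes overlapped with each other.

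App showed no such step. Its levels were 127.6 and 86.4 CPM in radial glia-like, 90.2 and 43.7 CPM in cycling radial glia-like, 142 and 80.6 CPM in intermediate progenitor-like, 108 and 96.6 CPM in immature glutamatergic-like and 92.2 and 110.4 CPM in mature glutamatergic-like cells, in the 190- and 951-cell aliquots. GABAergic-like cells had 52.6 and 74.1 CPM when immature and 51.8 and 84.7 CPM when mature. By the mean of both aliquots, only the step from mature glutamatergic-like to mature GABAergic-like cells, in an order of 8 classes, had neighbours whose aliquots did not overlap.

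The Aplp2 values of Cajal-Retzius-like cells came from 6 and 30 UMIs. In radial glia-like cells the aliquots gave 61.0 and 122.4 CPM, from 11 and 102 UMIs, with 95% Poisson intervals of 30.5 to 109 and 99.8 to 149 CPM. The other classes lay between 37.7 and 79.7 CPM, and the 190-cell value of radial glia-like cells fell within that range.

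**Figure D2:**
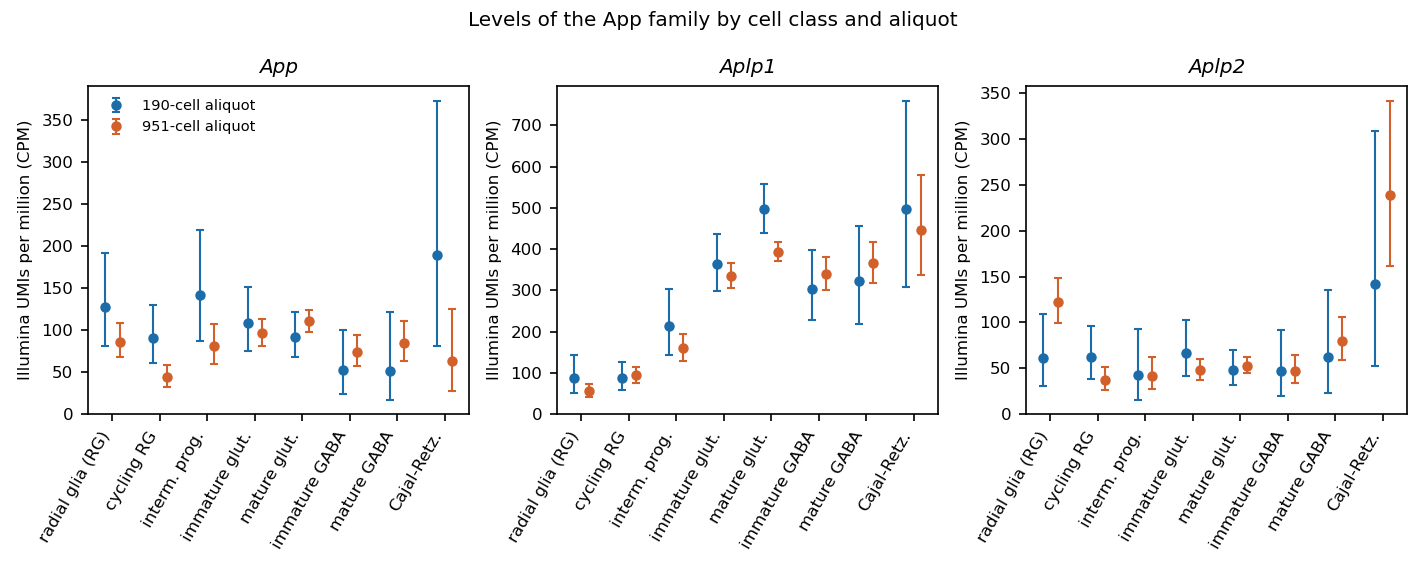
Illumina level of each member, in CPM, by cell class (RG, radial glia; glut., glutamatergic; Cajal-Retz., Cajal-Retzius), with 1 point per aliquot and bars for the 95% Poisson interval of the count. Aplp1 lies between 55.2 and 94.4 CPM in radial glia-like and cycling radial glia-like cells and between 304 and 496 CPM in the immature and mature neuron-like classes. App and Aplp2 overlap between these classes.

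The makeup of the family by UMIs varied over the classes. Of 270 family UMIs in radial glia-like cells, 35.2% were App, 23.0% Aplp1 and 41.9% Aplp2. The aliquots differed, with 46.0%, 32.0% and 22.0% of 50 UMIs in the 190-cell aliquot. In the 951-cell aliquot it was 32.7%, 20.9% and 46.4% of 220, so that Aplp2 was the largest part there only. Of 1858 in mature glutamatergic-like cells, 18.8% were App, 72.0% Aplp1 and 9.15% Aplp2, and the immature and mature neuron-like classes ranged from 69.4% to 74.0% Aplp1.

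Whether these differences exceeded the spread between aliquots was tested on sums per class and aliquot over 8444 genes (quasi-likelihood test of edgeR, with a threshold of 0.05 on the p adjusted by Benjamini-Hochberg). Aplp1 was higher in mature glutamatergic-like than in radial glia-like cells, with a log2 fold change of 2.80 ± 0.24 (SE), or 6.95-fold (adjusted p = 1.6e-12), in a comparison where 33.9% of genes were called. In mature GABAergic-like cells it was higher by 2.29 ± 0.25, or 4.87-fold (adjusted p = 1.3e-09), where 31.6% of genes were called. In both, the aliquots of the classes did not overlap. Nanopore sums gave 3.76 and 3.24 on the log2 scale in the same comparisons, with 19 Aplp1 UMIs in radial glia-like cells.

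Aplp2 was lower in mature glutamatergic-like than in radial glia-like cells by the same test (log2 fold change -0.94 ± 0.28, adjusted p = 0.0064, 2 aliquots per class). That call rested on the radial glia-like cells of the 951-cell aliquot. Without them the log2 fold change was -0.17 (adjusted p = 0.89), and DESeq2 gave -0.94 with an adjusted p of 0.24. Nanopore sums gave -1.33 (edgeR adjusted p = 0.0048). In mature GABAergic-like cells Aplp2 differed from radial glia-like cells by -0.53 ± 0.32 (adjusted p = 0.22), with an interval (1.96 SE either side) from -1.15 to 0.09.

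App differed from radial glia-like cells by 0.13 ± 0.27 in mature glutamatergic-like cells (adjusted p = 0.77, interval -0.41 to 0.67) and by -0.43 ± 0.33 in mature GABAergic-like cells (adjusted p = 0.36, interval -1.07 to 0.22). App thus passed neither test, and the intervals bound the change rather than show that there was none.

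Between the immature and mature classes, and between the mature classes, no member passed the test. The immature GABAergic-like cluster was led by Ebf1, Isl1 and Zfhx3 and the mature one by Maf, Nxph1 and Npy. These 2 classes may thus differ in cell type, and type and stage cannot be told apart in their comparison. In mature GABAergic-like cells set against mature glutamatergic-like cells, where 9.32% of genes were called, App differed by -0.56 ± 0.30 (edgeR adjusted p = 0.33), Aplp1 by -0.51 ± 0.21 (adjusted p = 0.14) and Aplp2 by 0.41 ± 0.31 (adjusted p = 0.54). Aplp2 differed by 0.57 ± 0.35 between mature and immature GABAergic-like cells (adjusted p = 0.60). Aplp1 was 0.42 ± 0.20 higher in mature than in immature glutamatergic-like cells (adjusted p = 0.36, with 3.59% of genes called) and differed by -0.03 ± 0.22 between mature and immature GABAergic-like cells (adjusted p = 1, with 2.69% called). With the aliquot as a replicate block, which pairs the classes of an aliquot, Aplp1 passed in 2 of these comparisons. It was then lower in mature GABAergic-like than in mature glutamatergic-like cells, at -0.41 (adjusted p = 0.034), and higher in mature than in immature glutamatergic-like cells, at 0.39 (adjusted p = 0.017). The difference of mature from immature cells was also compared between the glutamatergic-like and the GABAergic-like pair of classes. It did not pass for Aplp1 (0.46 on the log2 scale, edgeR adjusted p = 0.69), App (0.05, adjusted p = 1.00) or Aplp2 (-0.56, adjusted p = 0.79).

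**Figure D3:**
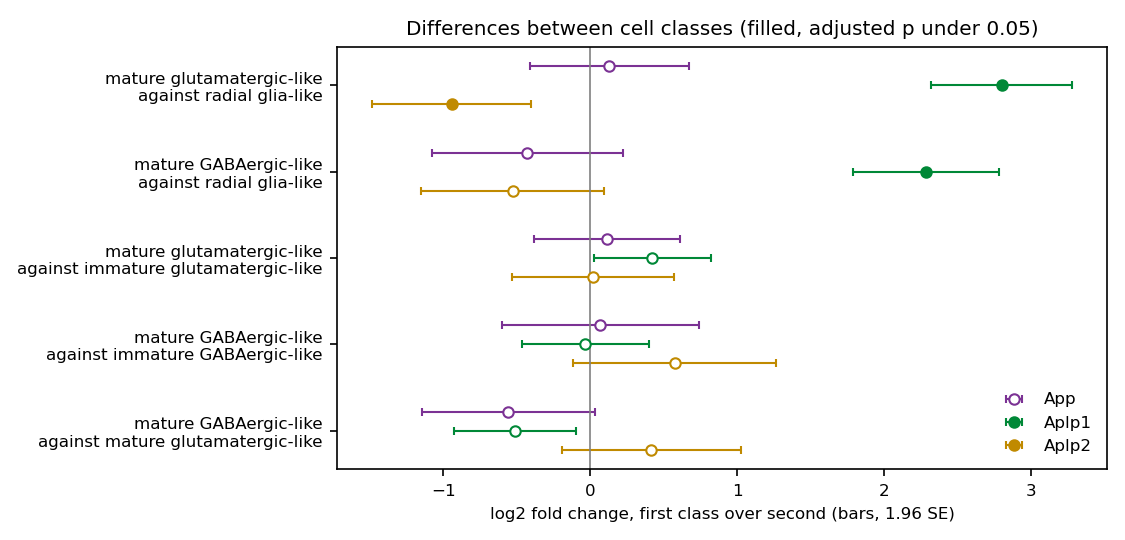
Log2 fold changes of the 3 members between cell classes (edgeR on Illumina sums of 2 aliquots per class), with bars of 1.96 SE either side; filled points passed an adjusted p of 0.05. Filled points are Aplp1 at 2.80 and 2.29 and Aplp2 at -0.94, all against radial glia-like cells.

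Within the mature glutamatergic-like class, the level of App differed between its 2 clusters. One of them, led by Ndrg1, Nefl and Itpr1, had 45.2 and 47.8 CPM of App in the 2 aliquots. The other, led by Crym, Nrp2 and Slit3, had 125 and 164 CPM. Further down its leading genes were Nts and Fezf2, a gene of deep-layer projection neurons. The 95% Poisson intervals of the clusters did not overlap in either aliquot, reaching up to 83.1 and 61.5 CPM in the first and down to 89.0 and 144 CPM in the second. Up to 15 App UMIs came from 1 cell of the second cluster, of 240 in its 119 cells of the 951-cell aliquot. Aplp1 had 456 and 389 CPM in the first and 523 and 397 CPM in the second. Clusters were made from the same cells, so this is a description without a test, but App itself was not among the genes used for clustering.

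At a finer clustering, 71 cells with 188 and 204 CPM of App formed a cluster of their own, led by Crym, Nrp2 and Slit3. The cluster led by Nts, Cdh13 and Fezf2 had 93.2 and 106 CPM of App, so that the highest App level was not in the cells marked by Fezf2. The marker rule named the cluster of 71 cells immature glutamatergic-like. App then was 0.89 lower on the log2 scale in mature than in immature glutamatergic-like cells (edgeR adjusted p = 0.038), whereas the main clustering gave 0.12 higher (adjusted p = 0.96). The direction of App between these stages turned with the class given to those cells.

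The isoforms of App differed between radial glia-like and mature neuron-like cells. Of 531 App UMIs in the Nanopore data, App-201 took 460 (86.6%, 95% Clopper-Pearson interval 83.4 to 89.4%), App-202 33 (6.21%), App-205 29 (5.46%) and App-206 9 (1.69%). The 7 other annotated App transcripts had no UMI, which allows each a share of up to 0.565%. That limit is for all cells together and for UMIs assigned to an isoform. It does not hold for a transcript that could not be counted. The intervals cover counting error only.

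The KPI exon was in 20 of the 44 App UMIs of radial glia-like cells that span it (45.5%, 95% interval 30.4 to 61.2%). These came from 15 cells, with at most 3 in 1 cell. The aliquots gave 7 of 9 and 13 of 35 UMIs, that is 77.8% and 37.1%. Cycling radial glia-like cells had the exon in 7 of 34 UMIs (20.6%, 8.70 to 37.9%), from 3 of 13 and 4 of 21 in the aliquots. Intermediate progenitor-like cells had it in 6 of 42 (14.3%, 5.43 to 28.5%), with 0 of 8 in the 190-cell aliquot, which allows up to 37.5%, and 6 of 34 in the 951-cell aliquot.

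In neuron-like cells the exon was rare. It was in 1 of 191 App UMIs of mature glutamatergic-like cells (0.524%, interval 0.0133 to 2.88%), with 0 of 27 and 1 of 164 in the aliquots. Immature glutamatergic-like cells had it in 4 of 107 (3.74%, 1.03 to 9.30%), immature GABAergic-like cells in 3 of 41 (7.32%, 1.54 to 19.9%) and mature GABAergic-like cells in 1 of 34 (2.94%, 0.0744 to 15.3%). In Cajal-Retzius-like cells 0 of 9 UMIs had it, which allows up to 33.3%. The interval of radial glia-like cells overlapped with those of cycling radial glia-like and Cajal-Retzius-like cells. It did not overlap with those of the 4 immature and mature neuron-like classes. The interval of intermediate progenitor-like cells also lay below it when both aliquots were pooled. In the 951-cell aliquot alone, however, the intervals of these progenitor-like classes overlapped (21.5 to 55.1% and 6.76 to 34.5%). Their App isoform usage did not pass a test either (diffSpliceDGE adjusted p = 0.49).

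**Figure D4:**
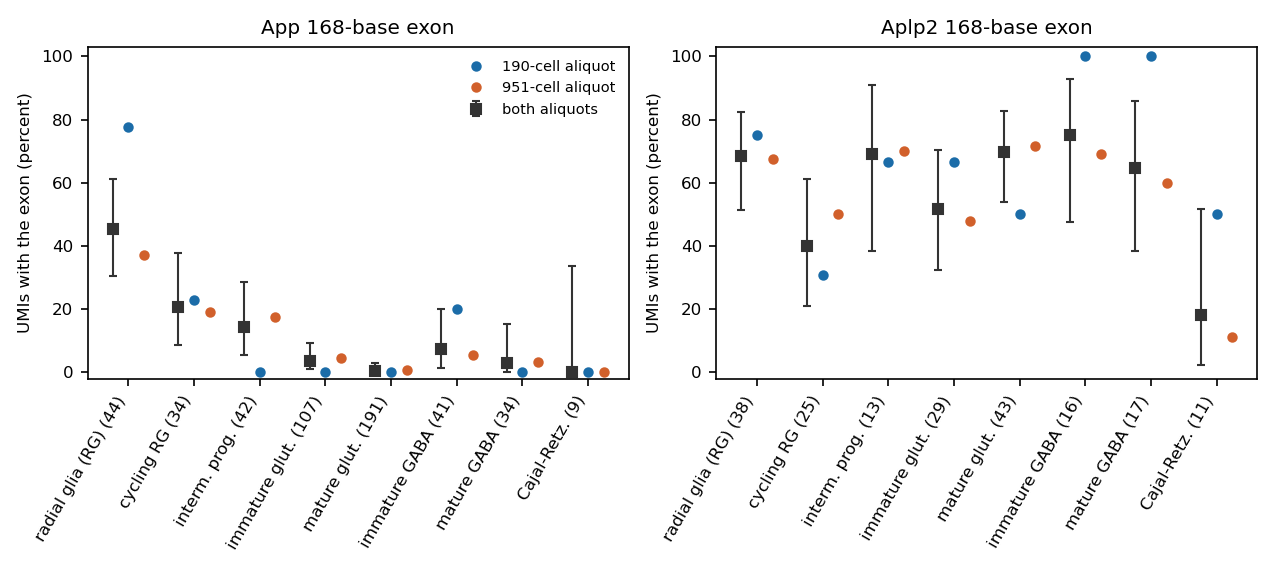
Share of the spanning Nanopore UMIs that contain the KPI exon of App (left) and of Aplp2 (right), in percent, by cell class, with the number of spanning UMIs in brackets; squares are both aliquots together with 95% Clopper-Pearson intervals, and coloured points are the aliquots. For App the share was 45.5% in radial glia-like and 0.524% in mature glutamatergic-like cells, and for Aplp2 it was 68.4% and 69.8% in the same classes.

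Isoform usage was tested with diffSpliceDGE of edgeR on isoform sums per class and aliquot, which asks whether the isoforms of a gene change differently. With the filter on low counts each member kept 1 isoform, so that none could be tested, and the fit without the filter is given. App isoform usage in mature glutamatergic-like cells differed from that in radial glia-like cells (adjusted p = 2.8e-10), where 2.43% of 7625 genes were called. Of the single isoforms, both forms with the KPI exon passed (adjusted p = 4.0e-06 for App-202 and 0.0035 for App-206), with 14 and 6 UMIs in radial glia-like cells and 1 and 0 in mature glutamatergic-like cells. Without the mature glutamatergic-like sum of the 951-cell aliquot the adjusted p was 0.020. App-201 gave 0.62 on the log2 scale relative to App as a whole and did not pass (adjusted p = 0.93). App usage in mature GABAergic-like cells also differed from that in radial glia-like cells (diffSpliceDGE adjusted p = 0.019, with 1.09% of genes called). There no single isoform passed (adjusted p = 0.055 for App-202, with 14 UMIs in radial glia-like and 0 in mature GABAergic-like cells). The call for mature GABAergic-like cells was lost without either mature GABAergic-like sum or without the radial glia-like sum of the 190-cell aliquot (adjusted p from 0.062 to 1), and with limma (adjusted p = 0.080).

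Neither App nor Aplp2 passed in the 3 comparisons among neuron-like classes, in which 0.0131%, 0% and 0.105% of genes were called. In the comparison with 0% called, that of mature with immature GABAergic-like cells, diffSpliceDGE gave 125 of 7625 genes an unadjusted p under 0.05 and limma called 1 gene. For App the adjusted p of diffSpliceDGE was 0.96 between mature and immature glutamatergic-like cells and 1 in the other 2 comparisons.

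Comparisons added after these values were seen gave the following. With the 3 progenitor-like classes pooled in each aliquot and set against the 4 neuron-like classes pooled, App-201 and App-202 passed the filter. App usage differed (diffSpliceDGE adjusted p = 3.1e-05, with 17.4% of 1117 genes called), and App-202 was lower in neuron-like cells, at -2.42 on the log2 scale relative to App as a whole (isoform adjusted p = 1.2e-04). The KPI exon was in 33 of 120 spanning UMIs of progenitor-like cells (27.5%, 19.7 to 36.4%) and in 9 of 373 of neuron-like cells (2.41%, 1.11 to 4.53%). The 190-cell aliquot gave 33.3% and 1.79% and the 951-cell aliquot 25.6% and 2.52%, the same direction in both. Without radial glia-like cells, and without the filter, the adjusted p was 0.057. Radial glia-like cells did not pass against cycling radial glia-like cells (adjusted p = 1, with 0.184% of genes called) or against intermediate progenitor-like cells (adjusted p = 0.49, with 0.302% called).

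Molecules with and without the KPI exon were found in the same cells. Of 26 radial glia-like cells with a spanning App UMI, 15 had the exon in at least 1 UMI and 6 of these also had a UMI without it. In neuron-like cells 9 of 226 such cells had a UMI with the exon, and 6 of these also had one without. The part of doublets and free RNA in these cells was not tested.

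The 57-base exon of App was in 9 UMIs in all, each assigned to App-206, which has both exons. Only UMIs that matched an annotated isoform were counted, so that these counts do not show whether the exon also occurs without the KPI exon. Radial glia-like cells had it in 6 of 44 spanning UMIs (13.6%, interval 5.17 to 27.4%), from 2 of 9 and 4 of 35 in the aliquots. Mature glutamatergic-like cells had it in 0 of 191, which allows up to 1.57%. Cycling radial glia-like, immature glutamatergic-like and mature GABAergic-like cells had 1 UMI each.

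App-205, the retained-intron transcript, had 13 of 204 App UMIs in mature glutamatergic-like cells (6.37%, 3.44 to 10.7%). Immature glutamatergic-like cells had 5 of 112 (4.46%, 1.47 to 10.1%). By class the share ran from 2.22% (1 of 45, radial glia-like, 0.0562 to 11.8%) to 10.5% (4 of 38, cycling radial glia-like, 2.94 to 24.8%), with overlapping intervals.

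The KPI exon of Aplp2 was found in every class, and no test of Aplp2 isoform usage passed. The exon was in 115 of 193 spanning UMIs over all cells (59.6%, interval 52.3 to 66.6%). Only UMIs that matched an annotated isoform were counted. The 9 UMIs of Aplp2-203, which is annotated without its 3′ end, were counted as containing both the KPI and the 36-base exon. No Aplp2 isoform with counts and a complete 3′ end held both exons. The shares thus leave out molecules with both exons that extend past the 36-base exon. Radial glia-like cells had the KPI exon in 26 of 38 (68.4%, 51.3 to 82.5%) and mature glutamatergic-like cells in 30 of 43 (69.8%, 53.9 to 82.8%). Pooled, progenitor-like cells gave 59.2% (45 of 76, interval 47.3 to 70.4%) and neuron-like cells 64.8% (68 of 105, interval 54.8 to 73.8%). The lowest shares were 40.0% in cycling radial glia-like cells (10 of 25, 21.1 to 61.3%) and 18.2% in Cajal-Retzius-like cells (2 of 11, 2.28 to 51.8%). Isoform usage of Aplp2 did not pass against radial glia-like cells in mature glutamatergic-like cells (diffSpliceDGE adjusted p = 0.96) or in mature GABAergic-like cells (adjusted p = 1). The intervals are wide, so that these counts do not show that the classes were alike.

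Of 207 Aplp2 UMIs, Aplp2-201 took 106 (51.2%), Aplp2-202 44 (21.3%), Aplp2-209 34 (16.4%), Aplp2-207 14 (6.76%) and Aplp2-203 9 (4.35%). The 36-base exon was in 53 of 193 UMIs counted for it (27.5%, 21.3 to 34.3%). Among the 53 were the 9 of Aplp2-203, whose annotation ends with this exon, so that they do not span it. With these UMIs, the share by class ran from 7.69% (1 of 13, intermediate progenitor-like) to 37.2% (16 of 43, mature glutamatergic-like, 4 of the 16 from Aplp2-203), with overlapping intervals. Aplp2-209, without either exon, had 1 of 47 Aplp2 UMIs in mature glutamatergic-like cells (2.13%, 0.0539 to 11.3%), 9 of 27 in cycling radial glia-like cells (33.3%, 16.5 to 54.0%) and 6 of 11 in Cajal-Retzius-like cells (54.5%, 23.4 to 83.3%).

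All 1663 Aplp1 UMIs assigned to an isoform were Aplp1-201. The 4 other annotated transcripts, all with a retained intron, had no UMI, which allows each up to 0.180% of the assigned UMIs. As for App, this limit does not hold for a transcript that could not be counted.

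Nanopore UMIs assigned to an isoform came to 52.2% and 59.6% of the Illumina UMIs of App in the 190- and 951-cell aliquots, 50.1% and 58.2% for Aplp1, and 40.4% and 32.8% for Aplp2. The libraries as a whole gave 54.9% and 58.9%. Relative to the other genes, Aplp2 was lower in Nanopore by a log2 fold change of -0.56 ± 0.14 (edgeR adjusted p = 0.020, 2 libraries per platform), where 50.5% of genes were called. App (0.11 ± 0.11, adjusted p = 0.46) and Aplp1 (0.06 ± 0.09, adjusted p = 0.64) did not pass. The Aplp2 call was lost with DESeq2 (-0.49, adjusted p = 0.26) and without either 951-cell library (adjusted p of 0.10 and 0.19).

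The other genes of the pathway were read from a list of 46 genes in 5 groups, of which 31 could be tested. Against radial glia-like cells, 12 were higher and 7 lower in mature glutamatergic-like cells (17.2% and 16.7% of all genes were called in these directions), and 9 were higher and 9 lower in mature GABAergic-like cells (14.1% and 17.5% of all genes). The median log2 fold change of the tested list was 0.57 and -0.02 in these comparisons, beside -0.00 and -0.06 over all genes.

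Of the secretases that make the first cut and the gamma-secretase complex, few genes could be tested. Against radial glia-like cells, 33.9% of all genes were called in mature glutamatergic-like cells and 31.6% in mature GABAergic-like cells. Of the 3 alpha-, beta- and eta-site proteases tested, Mmp24 rose in mature glutamatergic-like cells, from 0 and 1.2 CPM in radial glia-like cells to 18.4 and 17.3 CPM (edgeR adjusted p = 0.0013), and Mmp24 and Bace1, the beta-secretase, rose in mature GABAergic-like cells. Mmp24 was at 0 CPM in both of these classes in the 190-cell aliquot, and went from 1.2 to 14.9 CPM in the 951-cell aliquot alone (edgeR adjusted p = 0.026). Bace1 had 22.2 and 18 CPM in radial glia-like cells of the 2 aliquots and 62.2 and 58.1 CPM in mature GABAergic-like cells (log2 fold change 1.54, edgeR adjusted p = 0.0069). Of 5 gamma-secretase subunits tested, none passed in mature glutamatergic-like cells, and Psenen fell in mature GABAergic-like cells (-0.78, edgeR adjusted p = 0.013). Mmp24 and Psenen fall outside the rule for named genes and were named after their values were seen.

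Among cytoplasmic adaptors, which bind the inner tail of App or link it to transport, 7 of 12 could be tested, and rises outnumbered falls. Over all genes, 17.2% were called higher and 16.7% lower in mature glutamatergic-like cells. In mature GABAergic-like cells these shares were 14.1% and 17.5%. In mature glutamatergic-like cells 6 of 7 tested were higher and none lower, with Apbb2 going from 11.1 and 12 CPM in radial glia-like cells to 60.8 and 66.2 CPM (log2 fold change 2.49) and Mapk8ip2 from 22.2 and 22.8 to 66.4 and 65.5 CPM (1.59). In mature GABAergic-like cells 4 of 7 were higher, among them Apba2 from 77.7 and 69.6 to 228 and 199 CPM (1.42). Dab1, an adaptor of the reelin pathway, fell there from 94.3 and 91.2 CPM to 0 and 13.3 CPM (-3.08), whereas it was among those that rose in mature glutamatergic-like cells (1.48).

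Trafficking receptors and extracellular partners split. Of 13 tested among 16 listed, 5 were higher and 4 lower in mature glutamatergic-like cells (17.2% and 16.7% of all genes). In mature GABAergic-like cells 3 were higher and 5 lower (14.1% and 17.5% of all genes). Cntn2, a neuronal adhesion molecule that binds App, rose most in mature glutamatergic-like cells, from 5.55 and 10.8 CPM to 179 and 280 CPM (4.63). Lrp1, an endocytic receptor, rose in mature GABAergic-like cells, from 38.8 and 32.4 to 51.8 and 98.0 CPM (1.26). Apoe, the main lipid carrier of the brain, fell from 505 and 912 CPM in radial glia-like cells to 20.3 and 22.8 CPM in mature glutamatergic-like cells (-4.96) and to 20.7 and 19.9 CPM in mature GABAergic-like cells (-5.24). Clu, a secreted chaperone, fell from 183 and 356 CPM to 22.1 and 14.7 CPM (-4.02) and to 10.4 and 4.98 CPM (-5.66).

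Among peptide-degrading enzymes and inhibitors, 3 of 5 genes could be tested. All 3 were lower in mature glutamatergic-like cells, where 16.7% of all genes were called lower. In mature GABAergic-like cells 2 of 3 were lower, beside 17.5% of all genes. Cst3, a secreted cysteine protease inhibitor, went from 888 and 1190.0 CPM in radial glia-like cells to 275 and 271 CPM in mature glutamatergic-like cells (-1.88, edgeR adjusted p = 1.2e-09).

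Genes whose level followed each member were sought over the 14 sums of class and aliquot, among 3011 genes with a mean of at least 50 CPM, by the correlation of log2(CPM + 10). Aplp1 had the closest companions, with Pearson's r of 0.98 for Prkar1b and Sh3bp5, 0.97 for Nsg1 and Actl6b and 0.96 for Ywhag. For App, Nae1 came first at 0.86, then Drap1 at 0.81, Fdx1l and Ube2e2 at 0.74 and Emc3 at 0.74. For Aplp2, Mrps6 and Mydgf reached 0.78, Ntrk2 0.78, 1110051M20Rik 0.76 and Cby1 0.75. These are descriptions, since the sums share libraries, and the 5 genes are the highest of the 3011.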

How the data were processed

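The deposited files hold the authors' raw UMI counts, per gene (Illumina, Cell Ranger 2.0, mm10 per the labels) and per Gencode vM18 isoform (Nanopore, minimap2 and Sicelore), the latter only for UMIs whose exons matched 1 isoform. Columns were joined by barcode, cells with at least 1400 Illumina genes were kept, and both aliquots were integrated and clustered with Seurat 5.3.0 (2000 variable genes without the family and pathway genes, 11 dimensions, resolution 0.8). Clusters were named from marker lists; the clustering settings and naming thresholds were set after clusters had been seen. Doublets (Scrublet, scanpy 1.11.5) were called in 3 of 186 and 4 of 935 cells (1.61% and 0.428%) and were kept. Whether the caller missed doublets was not tested. Results without the called doublets are among the alternatives. Counts were summed per class and aliquot for classes with at least 5 cells in each, and tested with edgeR 4.0.16 (quasi-likelihood, TMM, 7 classes in 1 fit) and diffSpliceDGE, in R 4.3.3, at a Benjamini-Hochberg adjusted p of 0.05. Alternatives were DESeq2 1.42.0, limma 3.58.1, a replicate block, a resolution of 1.2, other sets of cells and leaving out each sum. The planned isoform fit used a filter on low counts, under which no member kept more than 1 isoform; the fit without it was chosen after seeing this. Scripts were tested on simulated data. Intervals are 95% Clopper-Pearson or Poisson and, like limits for a count of 0 (3 counts), cover counting error only. Exon sequences and annotation came from Gencode vM21 transcripts on GRCm38, matched by transcript ID and version.

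The sums of 1 aliquot deviated together (correlation of 0.599 between platforms, and from 0.137 to 0.335 over 21 pairs of classes), and both platforms of an aliquot read the same cDNA, so that the aliquot pairs the samples. In each comparison against radial glia-like cells, named pathway genes were the 3 largest called rises and falls with a mean of at least 20 CPM; all members were named. The members and lists were chosen with earlier results of these data known.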

Additional observations from a re-analysis of the deposited data

How the results depend on the processing

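Aplp1 against radial glia-like cells kept its direction and its call under every alternative run, and so did App isoform usage in mature glutamatergic-like cells set against radial glia-like cells. Of the alternatives, 154 of 180 for gene levels, 85 of 107 for isoform usage and 23 of 27 for the platforms kept their direction and side of the threshold. Against the Illumina level, Aplp2 gave -0.49 with DESeq2 and -0.62 to -0.41 on leaving out each library. In mature glutamatergic-like cells set against radial glia-like cells, Aplp2 gave -0.94 with DESeq2, with its call lost, and -1.23 to -0.17 on leaving out each sum. App between mature and immature glutamatergic-like cells reversed to -0.89 at a resolution of 1.2, the only change of sign in which either value was called. App isoform usage in mature GABAergic-like cells set against radial glia-like cells was no longer called with limma (App-201 at 2.59) and ranged from 0.45 to 1.44 on leaving out each sum, and that of the pooled classes was not called without radial glia-like cells and without the filter on low counts together (App-201 at 0.22). With the filter and without radial glia-like cells, 1 App isoform was left and App could not be tested. The causes were not tested. With the replicate block, which pairs the samples of an aliquot, Aplp1 became called between mature and immature glutamatergic-like cells (0.39) and in mature GABAergic-like cells set against mature glutamatergic-like cells (-0.41); the block changed no other call. The included share of the KPI exons moved beyond its interval in 11 of 108 alternatives, 10 of them the 190-cell aliquot alone, with between 2 and 27 spanning UMIs. The alternative without cells that share a barcode, the pooled classes and the contrasts among progenitor-like classes were chosen after seeing the data. Depth limited the isoform results: 207 Aplp2 and 531 App UMIs over all cells.

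The sign changed, with neither value called, in the other gene levels and isoform usages that follow, all as log2 differences. In mature glutamatergic-like cells set against radial glia-like cells, App gave -0.47 at a resolution of 1.2, -0.021 with DESeq2 and -0.22 to 0.28 on leaving out each sum. With mature GABAergic-like cells in their place, App gave 0.046 on Nanopore sums, and Aplp2 -0.97 to 0.29 on leaving out each sum. Between mature and immature glutamatergic-like cells, Aplp2 gave -0.29 on Nanopore sums, -0.031 with the family kept in the clustering, -0.35 at a resolution of 1.2, -0.051 with DESeq2 and -0.26 to 0.16 on leaving out each sum, where App gave -0.089 to 0.21. Between mature and immature GABAergic-like cells, Aplp1 gave 0.014 with the family kept in the clustering, 0.018 with DESeq2 and -0.27 to 0.14 on leaving out each sum, where App gave -0.67 to 0.52. In mature GABAergic-like cells set against mature glutamatergic-like cells, App gave 0.11 at a resolution of 1.2, and Aplp2 -0.020 to 0.56 on leaving out each sum. Aplp1 between the platforms gave -0.013 to 0.13 on leaving out each library.

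For isoform usage, the value is that of the isoform of the gene with the most UMIs. In mature GABAergic-like cells set against mature glutamatergic-like cells, App gave -0.0070 with the replicate block, -0.0030 without shared barcodes, -1.35 with limma and -0.010 to 0.051 on leaving out each sum, and Aplp2 gave 0.039 with the family kept in the clustering, 0.21 at a resolution of 1.2 and -0.16 to 0.58 on leaving out each sum. Between mature and immature glutamatergic-like cells, a resolution of 1.2 gave -0.0061 for App and -0.026 for Aplp2, and leaving out each sum gave -0.057 to 0.049 and -0.30 to 0.25. Aplp2 between mature and immature GABAergic-like cells gave 0.057 at a resolution of 1.2 and -0.60 to 0.35 on leaving out each sum, and in mature GABAergic-like cells set against radial glia-like cells -0.31 to 0.44.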
